A study of Mus musculus with 24 samples.

Results

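Collagen genes were examined in hepatocyte preparations from the livers of old mice fed a normal or a high-fat diet, the latter with or without rapamycin. A collagen gene was any row whose symbol reads Col, a type number, the letter a and a chain number, which gave 44 genes among the 55421 rows of the count and FPKM tables. They were divided into 11 fibrillar collagens, 8 basement membrane collagens (types IV, XV and XVIII) and 25 other collagens. All 24 libraries came from male C57BL/6J mice that had entered the study at 4 months of age, either on normal diet (ND) with vehicle or on ND with rapamycin at 42 ppm. From 18 months the mice were kept for 9 weeks on ND with vehicle (ND+veh, n = 8), on HFD plus vehicle (HFD+veh, n = 7; HFD is a high-fat diet in which fat supplies 60% of calories), or on HFD with rapamycin (HFD+eRapa, n = 9). Rapamycin, an inhibitor of the growth-control kinase mTOR, was given in the food in encapsulated form (eRapa). Poly(A) RNA was sequenced from hepatocytes released by perfusion of the liver with collagenase, washed at low speed and pelleted through a Percoll density gradient, steps that are meant to leave other liver cells behind. HFD+eRapa mice therefore differed from HFD+veh mice in drug exposure both before and during HFD. The labels number the replicates, and the study describes a score drawn from this RNA-seq as calculated per mouse, so that libraries were taken as separate mice.

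Collagens are secreted proteins of 3 chains wound into a triple helix. Fibrillar collagens (types I, III, V and others) form the cables of scar and capsule, type IV forms the sheet of basement membranes, type VI forms beaded filaments, and types XV and XVIII carry long glycosaminoglycan chains. In liver, fibrillar collagens are known chiefly as products of stellate cells and portal fibroblasts, type IV of endothelial and stellate cells, and Col18a1, the precursor of endostatin, as a product of hepatocytes. Before secretion the chains are hydroxylated and folded in the endoplasmic reticulum, and afterwards their ends are trimmed and the helices cross-linked.

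A read was found in all 24 libraries for 20 collagens, in 1 to 23 libraries for 23 collagens, and in no library for Col26a1. A count of 0 allows up to 0.00602 CPM (counts of the gene per M counts of the library) for Col26a1 over all libraries, and between 0.116 and 0.169 CPM in a single library. These limits cover counting error only. The table of length-scaled levels (FPKM) nevertheless gives Col26a1 a median of 0.00635, so that the separately estimated tables differ at the lowest levels. In the test described below, 21 collagens passed the filter on low counts. These were 8 fibrillar, 5 basement membrane and 8 other collagens. Of the 23 that did not pass, 10 had at most 10 reads over all libraries and 13 had more, up to 186 reads for Col4a5. When no filter was applied, 3 of them, Col4a4, Col8a1 and Col24a1, were called by edgeR as lower with eRapa under HFD, Col8a1 was called higher in HFD+veh against ND+veh, and Col4a4 lower in HFD+eRapa against ND+veh. Among the 23 that did not pass were the cartilage collagens Col2a1, with 5 reads, Col9a1, with 5, and Col10a1, with 7. The remaining type IV chains, Col4a4, with 121 reads, and Col4a6, with 16, did not pass either.

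Per length of gene, Col18a1 stood above every other collagen. Its median was 157 FPKM over 24 libraries (44.8 to 237), followed by the fibrillar Col5a3 at 4.60 FPKM and the type IV chain Col4a1 at 2.76 FPKM. Col14a1, a fibril-associated collagen, had a median of 2.48 FPKM, and the interstitial collagens Col3a1, Col1a2 and Col1a1 had 1.62, 0.509 and 0.282 FPKM. The FPKM ranges of Col5a3, Col4a1 and Col14a1 overlapped widely, while the lowest Col18a1 value lay above the highest value of any other collagen. In reads, Col18a1 made up between 41.2% and 92.3% of all collagen reads of a library (median 87.1%). The lowest share was in HFD+veh replicate 4 and the highest in ND+veh replicate 1.

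**Figure D1:**
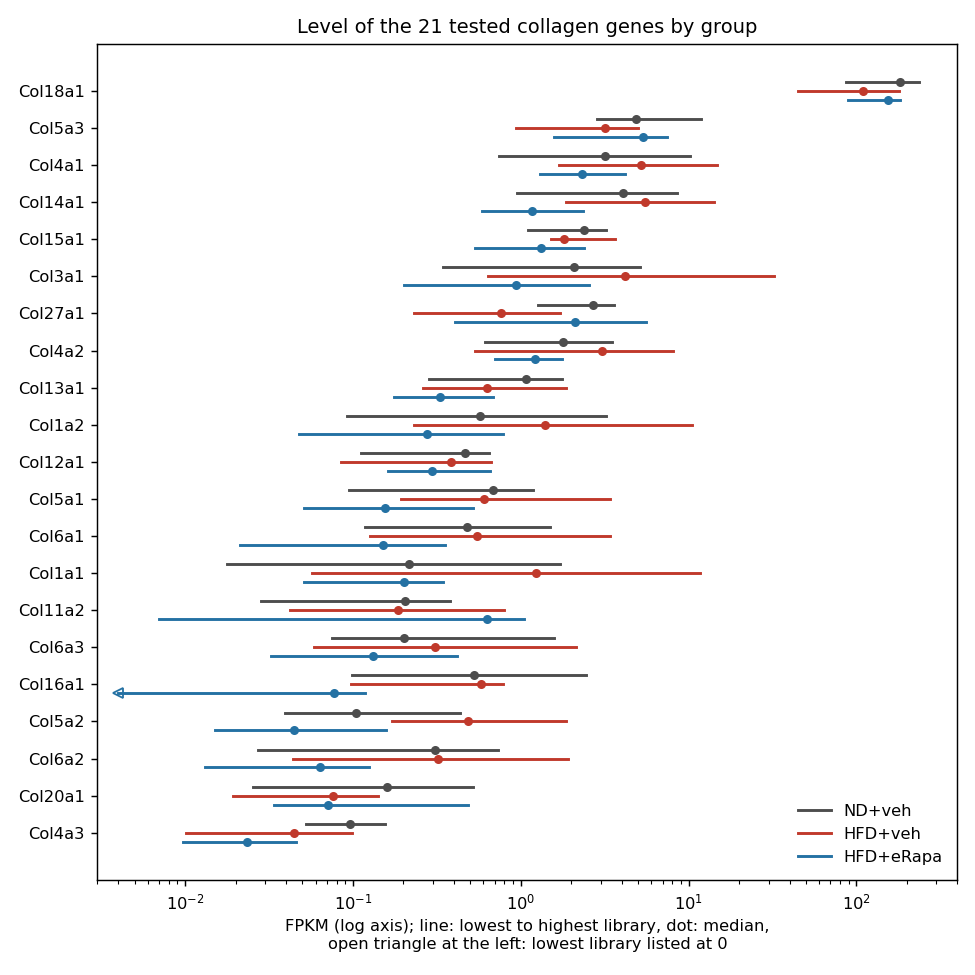
FPKM (log axis) of the 21 tested collagens, with a line from the lowest to the highest library of each group and a dot at the group median (ND+veh n = 8, HFD+veh n = 7, HFD+eRapa n = 9). Col18a1, with group medians of 182, 110 and 154 FPKM, lies to the right of the other 20, and Col16a1 was listed at 0 in 1 HFD+eRapa library.

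Gene starts and the sequence before them are shown for 4 collagens that behaved differently in the comparisons below: Col3a1 and Col5a1, which fell in the comparison of HFD+eRapa with HFD+veh, Col27a1, which rose in it, and Col18a1, which fell with HFD. The sequences are RefSeq's, on GRCm38.p6, read 5′ to 3′ on the strand of the gene. Each runs from 250 bases before the annotated start up to the base before it, except that of Col18a1, which ends 19 bases before the start, where a Gencode exon begins. Capitals mark any match on either strand to the TATA motif TATAAA, to the CAAT box motif CCAAT or to the GC box motif GGGCGG.
Col3a1, chr1:45311288-45311537, plus strand: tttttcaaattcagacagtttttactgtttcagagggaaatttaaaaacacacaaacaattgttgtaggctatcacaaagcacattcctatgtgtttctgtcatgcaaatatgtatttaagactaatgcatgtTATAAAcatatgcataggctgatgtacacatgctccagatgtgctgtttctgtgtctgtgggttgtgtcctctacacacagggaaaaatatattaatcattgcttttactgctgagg
Col5a1, chr2:27886175-27886424, plus strand: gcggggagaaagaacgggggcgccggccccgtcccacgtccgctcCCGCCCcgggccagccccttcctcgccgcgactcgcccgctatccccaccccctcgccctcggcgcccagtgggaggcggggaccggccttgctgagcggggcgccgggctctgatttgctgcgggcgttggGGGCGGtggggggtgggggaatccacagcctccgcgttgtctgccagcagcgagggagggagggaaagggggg
Col27a1, chr4:63215162-63215411, plus strand: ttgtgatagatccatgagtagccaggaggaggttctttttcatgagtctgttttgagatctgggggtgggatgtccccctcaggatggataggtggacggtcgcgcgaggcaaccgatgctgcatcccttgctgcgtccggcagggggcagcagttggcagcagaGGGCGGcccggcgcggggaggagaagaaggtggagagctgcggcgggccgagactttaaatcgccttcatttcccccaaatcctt
Col18a1, chr10:77166549-77166780, minus strand: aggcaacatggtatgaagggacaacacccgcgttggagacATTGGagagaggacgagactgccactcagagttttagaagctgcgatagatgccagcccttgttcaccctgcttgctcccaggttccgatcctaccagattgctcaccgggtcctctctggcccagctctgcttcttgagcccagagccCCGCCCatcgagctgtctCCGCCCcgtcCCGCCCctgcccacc

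The windows around the starts of Col3a1 and Col5a1 had little in common, with a GC content of 37.7% and 75%. That of Col3a1 held TATAAA, beginning 117 bases before the start, and no match to the other motifs. The window of Col5a1 held GGGCGG at 205 bases before the start on the opposite strand and at 73 bases before it on the gene's own strand. In that of Col27a1 GGGCGG began 85 bases before the start, with another match 44 bases after it that lies outside the printed stretch. Col18a1 had GGGCGG on the opposite strand at 61, 43 and 33 bases before this start and CCAAT at 210 bases before it, while the window of its other annotated start held none of the motifs. Which start the Col18a1 reads came from was not tested. Windows from 250 bases before to 50 after the start were matched for 35 of the 44 collagens, giving 38 windows. TATAAA was found in 13.2% of these and in 13.6% of all 32851 windows, CCAAT in 34.2% and 37.4%, and GGGCGG in 60.5% and 35.7%.

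Total counts ranged from 17.7 to 25.9 M per library. The 9 tested hepatocyte markers, Alb among them, summed to 74720 to 150700 CPM in ND+veh (median 125600), 112500 to 140200 CPM in HFD+veh (median 122700) and 56270 to 120400 CPM in HFD+eRapa (median 97680), so that the lowest library and the lowest median were in HFD+eRapa. The part of this shift in the comparisons below was not tested. Markers of other liver cells were also read. The 13 stellate cell markers summed to 56.6 to 343 CPM in ND+veh, 47.6 to 510 CPM in HFD+veh and 33.1 to 107 CPM in HFD+eRapa, and no gene of these marker lists was at 0 in all libraries. Endothelial markers (12 genes) summed to 121 to 633, 153 to 1194 and 94 to 475 CPM, macrophage markers (10 genes) to 36.6 to 1050, 119 to 3017 and 11.1 to 654 CPM, and portal fibroblast and smooth muscle markers (10 genes) to 1.01 to 4.44, 1.90 to 32.7 and 0.613 to 3.25 CPM. Lymphocyte and neutrophil markers (12 genes) summed to 0.902 to 38.5, 5.18 to 566 and 0.953 to 36.8 CPM, cholangiocyte markers (8 genes) to 10.2 to 68.4, 29.4 to 427 and 28.8 to 106 CPM, and mesothelial markers (6 genes) to 0.0385 to 1.15, 0.325 to 4.63 and 0.0557 to 2.90 CPM. Because each library mixes many cells, fewer cells of a type and less RNA per cell cannot be told apart.

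HFD+veh replicates 3, 4 and 6 stood apart from the other HFD+veh libraries in endothelial and stellate markers. Their endothelial markers summed to 1015, 1194 and 1093 CPM and their stellate markers to 427, 494 and 510 CPM, whereas the remaining 4 libraries of the group reached 644 and 189 CPM. Replicates 3, 4 and 6 were picked by a cut on the endothelial sum. Portal fibroblast and smooth muscle markers summed to 19.8, 32.7 and 20.1 CPM in these 3 libraries and to at most 8.59 CPM in the others. Lymphocyte and neutrophil markers summed to 186, 156 and 566 CPM, against at most 103 CPM. Cholangiocyte markers summed to 151, 427 and 323 CPM, against at most 107 CPM. Macrophage markers were also highest in these libraries, but did not part the group in this way. They were at 1949 CPM in replicate 5 beside 2055 CPM in replicate 4. Mesothelial markers did not part it either, with 1.51 CPM in replicate 3 and 2.42 CPM in replicate 5. HFD+veh replicate 4 had the highest level of all 24 libraries for 13 of the 21 tested collagens. The comparisons of collagens and of collagen handling genes with HFD+veh are therefore also given without replicates 3, 4 and 6, and without replicates 3 and 4, both chosen after the data had been seen.

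**Figure D2:**
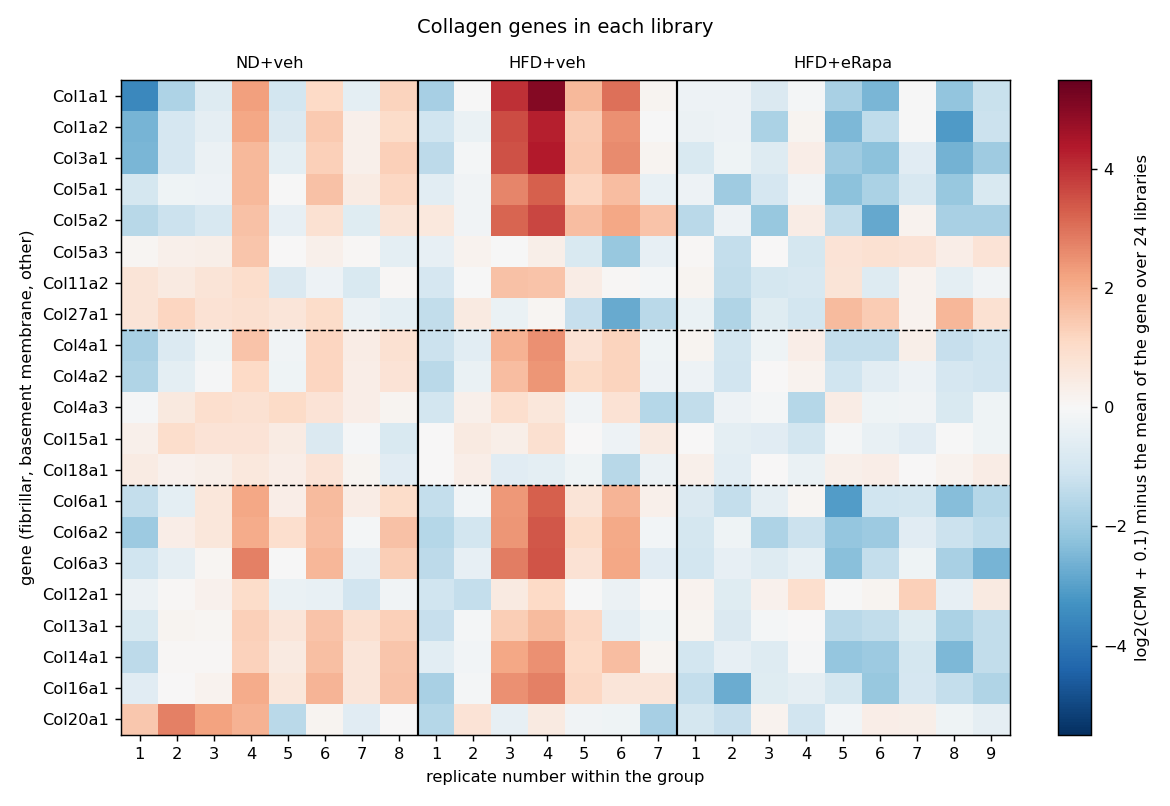
Level of the 21 tested collagens in each library, as log2(CPM + 0.1) minus the mean of the gene over 24 libraries, with columns in replicate order within each group and dashed lines between fibrillar, basement membrane and other collagens. HFD+veh replicates 3 and 4 are red for most chains of types I, III, IV, V and VI, ND+veh replicate 4 is high for most of the same genes, and Col18a1, Col5a3 and Col27a1 run differently.

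To ask what HFD did to collagen expression in old mice, HFD+veh was compared with ND+veh using the edgeR quasi-likelihood test on the counts of 13847 genes, with Benjamini-Hochberg adjustment over all of them, and a gene was called where its adjusted p was under 0.05. Of the 21 collagens, 4 rose (19%), beside 16.0% of all genes tested, and 2 fell (9.52%), beside 9.86% of all genes. The median log2 fold change was 0.49 over the 21 collagens and 0.05 over all genes. The 4 that rose were fibrillar: Col1a1, Col1a2, Col3a1 and Col5a2. The 2 that fell were the basement membrane collagen Col18a1 and Col20a1, a fibril-associated collagen.

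Col1a1 encodes the main chain of type I collagen, the principal collagen of scar (chr11:94936224-94953042, plus strand). It was read at 0.113 to 11.65 CPM in ND+veh (median 1.501) and at 0.596 to 80.6 CPM in HFD+veh (median 8.31). The groups overlapped, with 6 of the 7 HFD+veh libraries above the ND+veh median. The log2 fold change was 2.63 ± 0.80 (SE; adjusted p = 0.0209). Col1a2, the partner chain (chr6:4504814-4541544, plus strand), was at 0.451 to 13.8 CPM in ND+veh (median 2.998) and 1.42 to 62.3 CPM in HFD+veh (median 8.31). Its log2 fold change was 1.93 ± 0.70 (adjusted p = 0.0465), close to the threshold, and 5 of 7 HFD+veh libraries were above the ND+veh median.

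Col3a1, the chain of type III collagen of the reticular fibres (chr1:45311538-45349706, plus strand), was at 1.30 to 27.3 CPM in ND+veh (median 8.05) and 2.84 to 165 CPM in HFD+veh (median 21.6). It rose by 1.99 ± 0.68 on the log2 scale (adjusted p = 0.0355). Col5a2, a chain of type V collagen, which nucleates type I fibrils, was at 0.282 to 3.30 CPM in ND+veh and 0.882 to 14.3 CPM in HFD+veh. All 7 HFD+veh libraries lay above the ND+veh median of 0.653 CPM, with a log2 fold change of 2.19 ± 0.60 (adjusted p = 0.0121). The highest library of each group was replicate 4 for each of these 4 genes, in ND+veh as in HFD+veh.

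The calls of Col1a1, Col1a2 and Col3a1 depended on single libraries, and that of Col5a2 on no single one. HFD+veh replicates 3, 4 and 6 were the highest of their group for these 4 collagens, so leaving them out had to lower the fold changes. The highest ND+veh libraries, replicates 4, 6 and 8, were kept. Without HFD+veh replicates 3, 4 and 6, the log2 fold changes of Col1a1, Col1a2, Col3a1 and Col5a2 were 0.18, -0.20, -0.09 and 1.14, and edgeR called none of the collagens, with 0 higher and 3 lower at an unadjusted p under 0.05. Without replicates 3 and 4 they were 1.04, 0.50, 0.60 and 1.32, again with 0 called (1 higher and 3 lower at an unadjusted p under 0.05). Calls over all genes also fell, from 3584 to 917 without replicates 3, 4 and 6 and to 1714 without 3 and 4. Col1a1 lost its call on the removal of HFD+veh replicate 4 alone. Col3a1 lost it on the removal of any of ND+veh replicates 1, 2, 3, 5 and 7 or HFD+veh replicates 3, 4 and 6, with a highest adjusted p of 0.161, and so did Col1a2, which also lost it without HFD+eRapa replicates 1, 3, 6, 7 or 9, with a highest adjusted p of 0.187. Col5a2 kept its call without any single library (highest adjusted p = 0.0424). With a mean score of macrophage, lymphocyte and neutrophil markers as a covariate, their log2 fold changes were 0.39, 0.05, 0.05 and 0.79, and none was called. With the stellate marker score as a covariate they were 2.32, 1.69, 1.74 and 2.31, and all 4 were called. Calls over all genes numbered 1164 with the immune score and 5355 with the stellate score. In the fit without a covariate, 0 of 13 stellate markers were called higher and 1 lower, beside 16.0% and 9.86% of all genes. Called higher were 3 of 3 tested portal fibroblast and smooth muscle, 3 of 4 tested lymphocyte and neutrophil, 3 of 10 macrophage and 1 of 12 endothelial markers. Of 4 tested cholangiocyte markers 3 rose and 1 fell. The only tested mesothelial marker rose, and 2 of 9 hepatocyte markers fell.

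Among the other fibrillar collagens, Col5a1 differed by 0.98 ± 0.51 (adjusted p = 0.156) and Col27a1 by -1.31 ± 0.50 (adjusted p = 0.0539), neither of them called. Col27a1, a collagen best known from cartilage (chr4:63214004-63334991, plus strand), was at 6.92 to 23.1 CPM in ND+veh and 1.41 to 14.2 CPM in HFD+veh. No HFD+veh library exceeded the ND+veh median of 17.1 CPM. Col5a3, a further chain of type V collagen, was at 21.2 to 89.1 CPM and 7.31 to 38.3 CPM, with a log2 fold change of -0.66 ± 0.31 (adjusted p = 0.113).

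Col18a1 (chr10:77052178-77166548, minus strand) was read at 489 to 1273 CPM in ND+veh (median 965) and 259.5 to 971 CPM in HFD+veh (median 602), and 1 of 7 HFD+veh libraries lay above the ND+veh median. It fell by 0.62 ± 0.22 on the log2 scale (adjusted p = 0.0428). The fall was -0.25 without HFD+veh replicates 3, 4 and 6 and -0.48 without replicates 3 and 4, with adjusted p of 0.503 and 0.175. The call was lost on the removal of any of 10 single libraries (ND+veh replicates 1, 2, 3, 5, 6 and 7 and HFD+veh replicates 3, 4, 5 and 6). Col20a1, at 0.152 to 4.59 CPM in ND+veh and 0.0941 to 1.07 CPM in HFD+veh, fell by 1.75 ± 0.56 on the log2 scale (adjusted p = 0.0251), with no HFD+veh library above the ND+veh median of 1.26 CPM. It was no longer called without ND+veh replicate 2 or 3, whose Col20a1 levels were the highest 2, with a highest adjusted p of 0.072.

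Type IV collagen chains Col4a1 (chr8:11198423-11312826, minus strand) and Col4a2 (chr8:11312805-11449287, plus strand) were not called. They differed by 0.64 ± 0.47 and 0.67 ± 0.42 on the log2 scale, with adjusted p of 0.325 and 0.236. Without HFD+veh replicates 3, 4 and 6 their values were -0.44 and -0.26. The type VI chains Col6a1, Col6a2 and Col6a3 differed by 0.75, 0.69 and 0.79, with none called.

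To ask whether eRapa altered this, HFD+eRapa was compared with HFD+veh. Of the 21 collagens, 14 fell (66.7%), beside 21.1% of all genes tested, and 1 rose, beside 10.9% of all genes. The median log2 fold change was -1.43 over the collagens and -0.04 over all genes. Fibrillar collagens accounted for 5 of the 14, basement membrane collagens for 3 and other collagens for 6. Of the 23 collagens that did not pass the filter, DESeq2 called Col25a1 higher and Col4a4, Col8a1 and Col24a1 lower in this contrast. Col25a1, with 60 reads in all, had a read in 9 of 9 HFD+eRapa and 4 of 7 HFD+veh libraries. This contrast and the one with ND+veh share the HFD+veh libraries, so that a high HFD+veh value moves both. HFD+veh replicate 4 had the highest level of the HFD+veh libraries for all 14 collagens that fell, and replicate 3 was among the highest 2 for 13 of them.

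**Figure D3:**
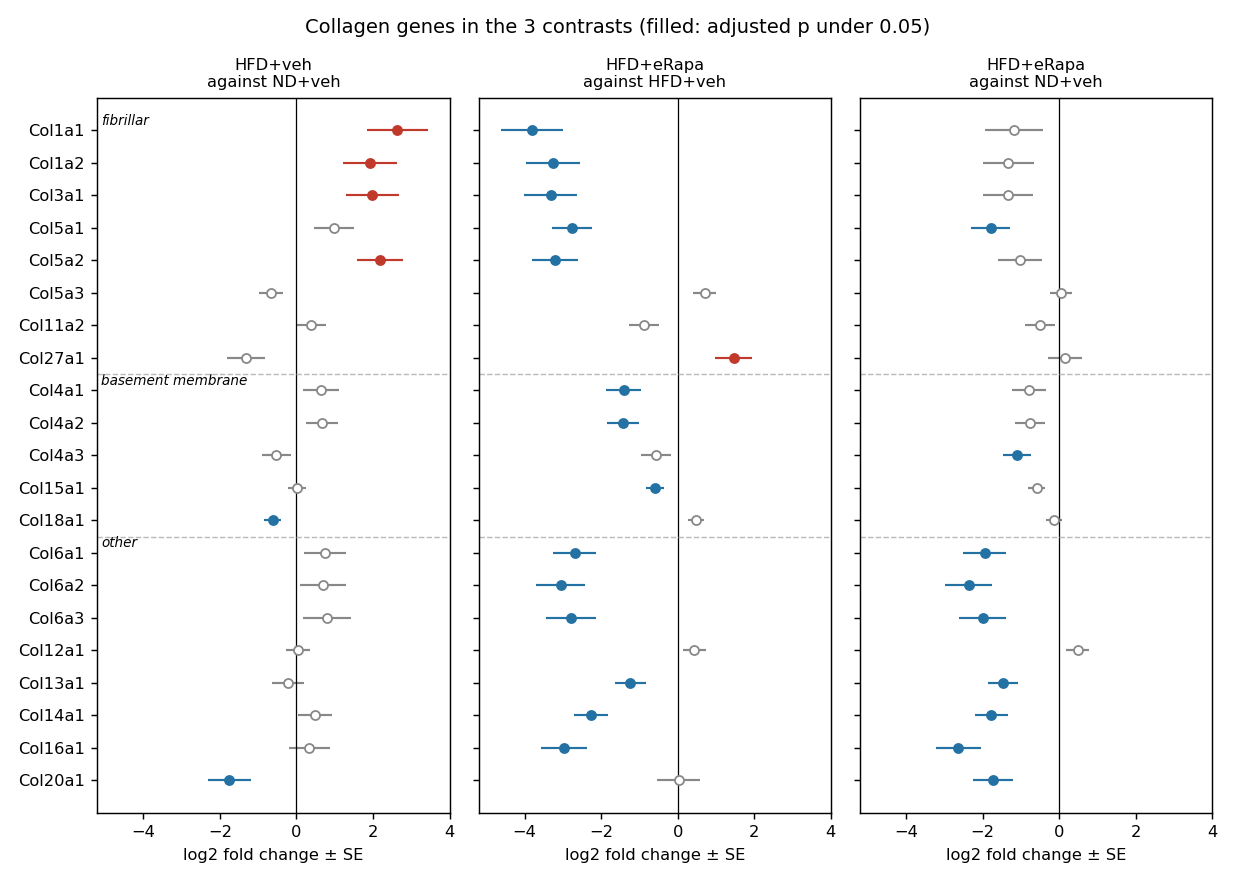
Log2 fold change ± SE of the 21 tested collagens in the 3 contrasts, with filled points for an adjusted p under 0.05 (edgeR), red for higher and blue for lower. In HFD+eRapa against HFD+veh the fibrillar collagens of types I, III and V fell by 2.77 to 3.80 (Col5a3 apart), and Col27a1 rose by 1.46.

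Col1a1 was at 0.337 to 2.34 CPM in HFD+eRapa (median 1.34), and none of the 9 libraries reached the HFD+veh median of 8.31. It fell by 3.80 ± 0.81 on the log2 scale (adjusted p = 0.00185). Col1a2, at 0.278 to 3.48 CPM in HFD+eRapa, fell by 3.26 ± 0.71 (adjusted p = 0.00222), and Col3a1, at 1.22 to 10.2 CPM, fell by 3.32 ± 0.69 (adjusted p = 0.00152). The lowest HFD+veh libraries, at 0.596, 1.42 and 2.84 CPM, lay within the HFD+eRapa range for all 3 genes. Col5a1 and Col5a2, chains of type V collagen, also fell. Col5a1, at 1.28 to 19.9 CPM in HFD+veh and 0.333 to 1.72 CPM in HFD+eRapa, fell by 2.77 ± 0.52 (adjusted p = 0.000716). Col5a2, at 0.0561 to 1.39 CPM in HFD+eRapa, fell by 3.21 ± 0.60 (adjusted p = 0.000673), the smallest adjusted p among the collagens.

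**Figure D4:**
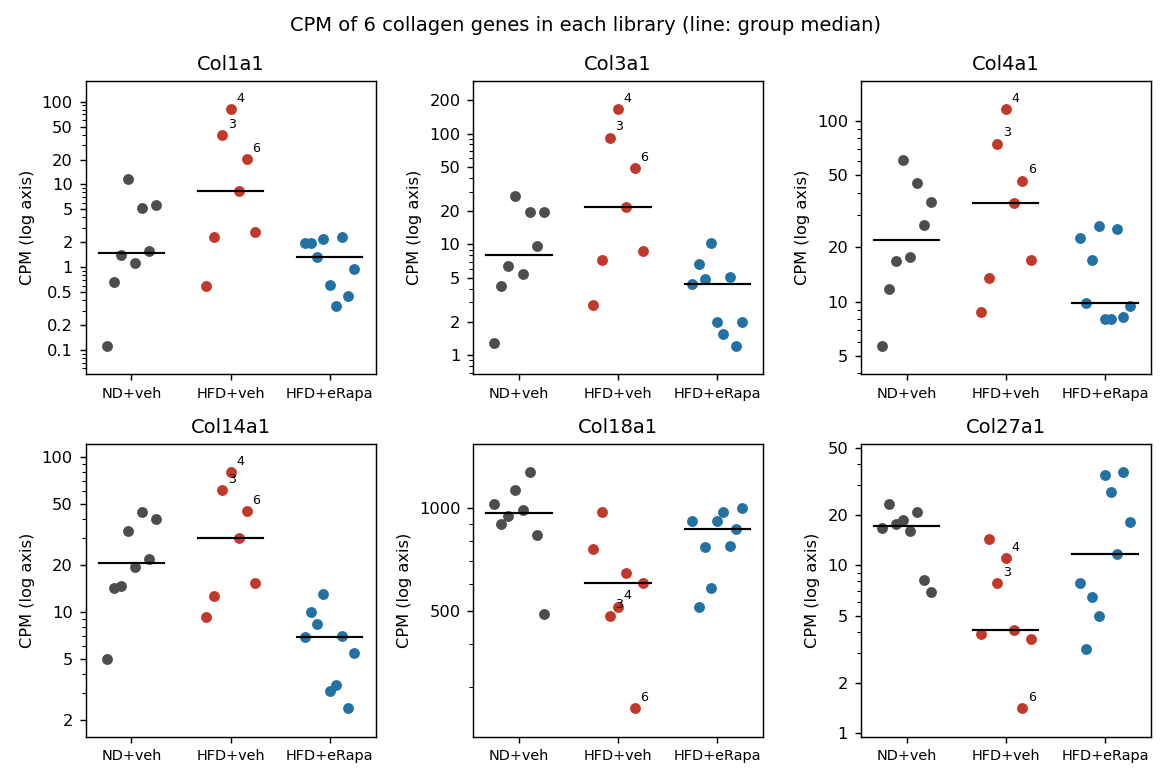
CPM (log axis) of Col1a1, Col3a1, Col4a1, Col14a1, Col18a1 and Col27a1 in each library, with a line at the group median and HFD+veh replicates 3, 4 and 6 numbered. Those 3 libraries are the highest of HFD+veh for Col1a1, Col3a1, Col4a1 and Col14a1, and replicate 6 is the lowest for Col18a1, at 259.5 CPM, and for Col27a1, at 1.41 CPM.

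The remaining fibrillar collagens were Col27a1, which rose, and Col5a3 and Col11a2, which were not called. Col27a1 was at 3.17 to 35.7 CPM in HFD+eRapa (median 11.6), 8 of 9 libraries lay above the HFD+veh median of 4.11 CPM, and it rose by 1.46 ± 0.49 on the log2 scale (adjusted p = 0.0254). The call was lost without HFD+veh replicate 6 or HFD+eRapa replicate 5 or 8, and without HFD+veh replicates 3, 4 and 6 the value was 1.40 (adjusted p = 0.196). With the stellate and immune marker scores as covariates it was 0.83 and 0.11, neither called. Col5a3 had a median of 40.2 CPM in HFD+eRapa and differed by 0.70 ± 0.30 (adjusted p = 0.0781). Col11a2 differed by -0.89 ± 0.40 (adjusted p = 0.092).

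In the basement membrane group, Col4a1 was at 8.71 to 115 CPM in HFD+veh (median 35.3) and 7.96 to 26.04 CPM in HFD+eRapa (median 9.85), and fell by 1.42 ± 0.46 on the log2 scale (adjusted p = 0.0219). Col4a2, at 3.90 to 60.5 and 5.14 to 12.9 CPM, fell by 1.43 ± 0.41 (adjusted p = 0.0106). The lowest Col4a2 value thus belonged to an HFD+veh library, replicate 1. Col15a1, whose protein lies between basement membrane and interstitium, fell by 0.60 ± 0.23 (adjusted p = 0.0462), from 6.08 to 13.7 CPM in HFD+veh to 3.62 to 7.36 CPM in HFD+eRapa. Its call was lost on the removal of any of 15 single libraries. Without HFD+veh replicate 4 neither Col4a1 nor Col4a2 was called, and Col4a1 was not called without HFD+veh replicate 3 either. Col18a1 was at 512 to 1002 CPM in HFD+eRapa (median 867), above the HFD+veh median in 7 of 9 libraries, with a difference of 0.48 ± 0.22 that was not called (adjusted p = 0.0955).

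Among the other collagens, the 3 type VI chains fell together. Col6a1 was at 0.550 to 15.7 CPM in HFD+veh and 0.0952 to 1.67 CPM in HFD+eRapa, and fell by 2.69 ± 0.57 on the log2 scale (adjusted p = 0.00169). Col6a2 fell by 3.06 ± 0.64 (adjusted p = 0.00147) and Col6a3 by 2.79 ± 0.65 (adjusted p = 0.00308). Col14a1, a fibril-associated collagen of the interstitium (chr15:55307750-55520803, plus strand), was the most read collagen of this class. It was at 9.22 to 79.8 CPM in HFD+veh (median 30.0) and 2.39 to 13.1 CPM in HFD+eRapa (median 6.86), and fell by 2.27 ± 0.45 (adjusted p = 0.00105). Col16a1, also fibril-associated, was at 0.0917 to 4.39 CPM in HFD+veh and at 0 to 0.371 CPM in HFD+eRapa, and fell by 2.97 ± 0.59 (adjusted p = 0.00105). The transmembrane Col13a1 fell by 1.23 ± 0.41 (adjusted p = 0.0247), a call that was lost without HFD+veh replicate 3, 4 or 5. Col12a1 and Col20a1, with 0.43 ± 0.31 and 0.03 ± 0.55, were not called.

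Without HFD+veh replicates 3, 4 and 6, Col5a2 alone of the collagens was called (log2 fold change -2.14, adjusted p = 0.0476), and the values of Col1a1, Col3a1, Col5a1, Col14a1 and Col16a1 were -1.33, -1.22, -1.33, -1.32 and -1.91. All 14 kept a negative sign. Calls over all genes in this contrast fell from 4432 to 729 in that fit, and to 2177 without replicates 3 and 4. Without replicates 3 and 4, 8 collagens were called, all lower: Col1a1, Col3a1, Col5a1, Col5a2, Col6a1, Col6a2, Col14a1 and Col16a1. Stellate markers moved in the same direction, with 11 of 13 called lower in the same contrast (84.6%, beside 21.1% of all genes). So did 12 of 12 endothelial, 8 of 10 macrophage, 3 of 4 tested lymphocyte and neutrophil, and 3 of 3 tested portal fibroblast and smooth muscle markers. Among cholangiocyte markers 1 of 4 tested rose and 1 fell, the only tested mesothelial marker was not called, and of the 9 hepatocyte markers 2 rose. With the stellate marker score as a covariate 1 collagen, Col15a1, was called (-0.94, adjusted p = 0.0443), and Col1a1, Col3a1 and Col4a1 had log2 fold changes of 0.29, -0.04 and 0.57. With the immune marker score, 3 collagens were called, Col5a2, Col14a1 and Col15a1, with -1.54, -0.83 and -0.94. Calls over all genes numbered 693 with the stellate score and 865 with the immune score.

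**Figure D5:**
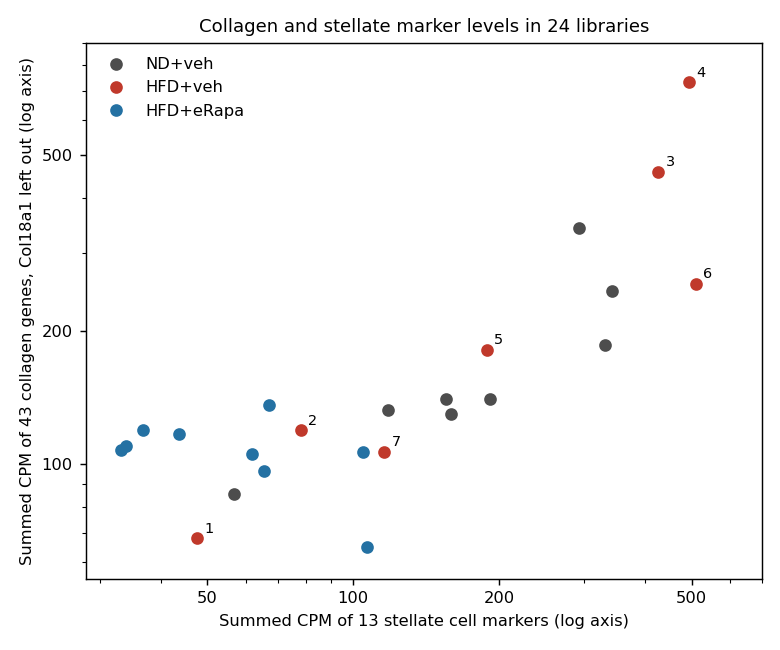
Summed CPM of 13 stellate cell markers against summed CPM of the 43 collagens other than Col18a1, both on log axes, with 1 point for each of the 24 libraries and the HFD+veh replicates numbered. HFD+veh replicates 3, 4 and 6 and ND+veh replicates 4, 6 and 8 lie highest on the stellate axis, and all 9 HFD+eRapa libraries lie at or under 107 CPM of stellate markers and at or under 136 CPM of collagens.

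To set the treated HFD mice beside those that never received HFD, HFD+eRapa was compared with ND+veh. Of the 21 collagens 9 fell (42.9%), beside 6.54% of all genes tested. None rose by edgeR, with 0 higher at an unadjusted p under 0.05 and 1 called higher by DESeq2 (Col25a1, with 60 reads in all), beside 6.93% of all genes called higher. The median log2 fold change was -1.17 over the collagens and -0.03 over all genes. By class, 7 of the 8 other collagens fell, 1 of the 8 fibrillar and 1 of the 5 basement membrane collagens. Type I and III collagen, which had risen with HFD, were not among them. Col1a1, Col1a2 and Col3a1 differed by -1.17 ± 0.75, -1.33 ± 0.67 and -1.33 ± 0.65, with adjusted p of 0.353, 0.218 and 0.195.

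Col14a1, at 4.96 to 44.2 CPM in ND+veh (median 20.8), fell by 1.77 ± 0.43 on the log2 scale (adjusted p = 0.00714), and no HFD+eRapa library reached the ND+veh median. The type VI chains fell by 1.94 ± 0.55 (Col6a1), 2.36 ± 0.62 (Col6a2) and 2.00 ± 0.62 (Col6a3), with adjusted p of 0.0191, 0.0112 and 0.0336. Col6a3 was no longer called on the removal of any of ND+veh replicates 4, 6 and 8 or HFD+eRapa replicates 1, 5, 6, 8 and 9. Col16a1, at 0.338 to 2.61 CPM in ND+veh, fell by 2.63 ± 0.58 (adjusted p = 0.00308), and Col13a1, at 1.01 to 5.83 CPM, by 1.46 ± 0.40 (adjusted p = 0.0155). No HFD+eRapa library lay above the ND+veh median for either gene. Col5a1 fell by 1.79 ± 0.51 (adjusted p = 0.0185), a call lost without ND+veh replicate 6. Col20a1 fell by 1.73 ± 0.52 (adjusted p = 0.026), a call lost without ND+veh replicate 2 or 3. Col4a3, a type IV chain of the kidney glomerulus and lung, fell by 1.10 ± 0.37 (adjusted p = 0.0495), from 0.451 to 1.11 CPM to 0.0928 to 0.666 CPM, and 16 of the 24 removals of a single library ended its call.

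Col18a1, Col5a3 and Col27a1 differed little between HFD+eRapa and ND+veh, by -0.14 ± 0.21, 0.04 ± 0.29 and 0.15 ± 0.45, none called. Stellate markers were called lower in HFD+eRapa for 10 of 13 genes (76.9%, beside 6.54% of all genes). Of 12 endothelial markers 1 was called lower (8.33%), near the share of all genes. Called were 0 of 10 macrophage and 0 of 9 hepatocyte markers (0 and 2 lower at an unadjusted p under 0.05). The 3 tested portal fibroblast and smooth muscle and the 4 tested lymphocyte and neutrophil markers were not called (0 and 1 higher at an unadjusted p under 0.05). Among cholangiocyte markers 1 of 4 tested rose, and the only tested mesothelial marker was not called. With the stellate marker score as a covariate 9 collagens were again called, but 6 of them were higher and 3 lower, and 1 of the 9 calls made without the covariate was kept. Col1a1 then had a log2 fold change of 2.61 (adjusted p = 5.95e-05) and Col14a1 one of 0.09 (adjusted p = 0.749). Calls over all genes rose from 1865 to 3582 with this covariate. HFD+veh libraries are not part of this contrast, and leaving out replicates 3, 4 and 6 from the fit kept all 9 calls.

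Chains that assemble into one molecule were compared by their ratios. The ratio of Col4a1 to Col4a2 FPKM had medians of 1.82 in ND+veh, 1.83 in HFD+veh and 2.19 in HFD+eRapa, and that of Col6a1 to Col6a2 had 1.89, 1.96 and 2.28. For type I collagen, in which the Col1a1 chain outnumbers the Col1a2 chain, the FPKM ratio of Col1a1 to Col1a2 was 0.398 in ND+veh (0.193 to 0.640), 0.892 in HFD+veh (0.247 to 1.12) and 0.529 in HFD+eRapa (0.244 to 1.61). The ranges overlapped for each of the pairs. Several collagens that fell together also lie side by side in the genome. Col4a1 and Col4a2 face away from each other and overlap by 22 bases, and Col3a1 and Col5a2 lie tail to tail on chromosome 1 with 24614 bases between them. Counting with or without strand is not stated, and of the tested collagens Col4a3 shares the most exon sequence with another gene, 563 bases or 5.65%.

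The proteins that build, trim, cut and bind collagen were taken from 4 lists of 61 genes, of which 43 were tested. Against ND+veh, HFD+veh had 8 of the 43 higher (18.6%) and 4 lower (9.3%), shares close to the 16.0% and 9.86% of all genes tested. In HFD+eRapa against HFD+veh 3 were higher (6.98%, beside 10.9% of all genes) and 28 lower (65.1%, beside 21.1%), and in HFD+eRapa against ND+veh 12 were lower (27.9%, beside 6.54%). With HFD+veh replicates 3, 4 and 6 left out the counts were 2 higher and 1 lower against ND+veh, and 5 lower in HFD+eRapa against HFD+veh. Without replicates 3 and 4 they were 5 higher and 2 lower, and 16 lower. Calls over all genes in these contrasts fell from 3584 and 4432 to 917 and 729, and to 1714 and 2177. Median log2 fold changes of the 43 were 0.55, -1.34 and -0.63.

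Of 16 tested genes for synthesis in the endoplasmic reticulum, 9 fell in HFD+eRapa against HFD+veh (56.2%, beside 21.1% of all genes), 6 fell in HFD+eRapa against ND+veh (37.5%, beside 6.54%), and 4 fell and 1 rose in HFD+veh against ND+veh (25% and 6.25%, beside 9.86% and 16.0%). Serpinh1, the collagen chaperone Hsp47, was at 2.15 to 34.7 CPM in HFD+veh (highest in replicate 4) and 1.12 to 5.99 CPM in HFD+eRapa, and fell by 1.98 ± 0.50 on the log2 scale (adjusted p = 0.00524). Its value was -0.57 without HFD+veh replicates 3, 4 and 6 and -1.14 without replicates 3 and 4, with adjusted p of 0.55 and 0.11. P4ha2, a catalytic subunit of prolyl 4-hydroxylase, was at 4.11 to 9.21 CPM in HFD+veh and 1.99 to 4.32 CPM in HFD+eRapa, and fell by 0.99 ± 0.16 (adjusted p = 0.000174), and by 1.06 without HFD+veh replicates 3, 4 and 6 (adjusted p = 0.00114). It was at 5.37 to 12.58 CPM in ND+veh, and its ND+veh and HFD+eRapa values did not overlap (log2 fold change -1.04 ± 0.16, adjusted p = 6.99e-05). P4hb, the partner subunit that also serves as a general protein disulfide isomerase, was at 1191 to 2141 CPM over all libraries and was called in none of the contrasts. P3h1, a prolyl 3-hydroxylase of fibrillar collagen, fell with HFD by 1.04 ± 0.18 (adjusted p = 0.000387), from 14.3 to 33.15 CPM to 6.26 to 15.9 CPM, and was at 6.54 to 15.2 CPM in HFD+eRapa. It fell with HFD by 0.98 also without HFD+veh replicates 3, 4 and 6 (adjusted p = 0.00281). Fkbp14, a proline isomerase, fell in HFD+eRapa against ND+veh by 0.83 ± 0.13 (adjusted p = 9.96e-05), with no overlap of the groups at 6.33 to 10.9 and 3.66 to 6.09 CPM.

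Of 9 tested genes for trimming and cross-linking, 7 fell and 1 rose in HFD+eRapa against HFD+veh (77.8% and 11.1%, beside 21.1% and 10.9% of all genes). Loxl2 and Loxl3, lysyl oxidase-like enzymes that cross-link collagen, fell by 2.80 ± 0.61 (adjusted p = 0.00201) and 2.70 ± 0.54 (adjusted p = 0.00115). Loxl2 had also risen with HFD, by 1.78 ± 0.60 (adjusted p = 0.0327). Sparc, a collagen-binding matrix protein, was at 11.2 to 144 CPM in HFD+veh and 5.05 to 21.7 CPM in HFD+eRapa, and fell by 2.02 ± 0.44 (adjusted p = 0.00231). Without HFD+veh replicates 3, 4 and 6 the values of Loxl2, Loxl3 and Sparc in this contrast were -0.99, -1.46 and -0.80, with adjusted p of 0.372, 0.14 and 0.309, and Loxl2 differed by -0.0071 between HFD+veh and ND+veh. Without replicates 3 and 4 all 3 were called lower in HFD+eRapa, and Loxl2 was not called in HFD+veh against ND+veh (0.88, adjusted p = 0.326).

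Of 12 tested genes for breakdown, 5 rose in HFD+veh against ND+veh, 41.7% beside 16.0% of all genes, and 8 fell and 1 rose in HFD+eRapa against HFD+veh, 66.7% and 8.33% beside 21.1% and 10.9%. Mmp2, a gelatinase, was at 0.229 to 6.66 CPM in HFD+veh and 0 to 0.190 CPM in HFD+eRapa, where 17 reads were counted in all, and fell by 4.16 ± 0.68 on the log2 scale (adjusted p = 0.000199). Mrc2, an endocytic collagen receptor, fell by 3.73 ± 0.69 (adjusted p = 0.000625), with 11 reads in HFD+eRapa. Timp3, an inhibitor of metalloproteinases, was called in every contrast, rising by 1.36 ± 0.44 with HFD (adjusted p = 0.0287) and falling by 2.62 ± 0.44 in HFD+eRapa against HFD+veh (adjusted p = 0.000304). In HFD+eRapa against ND+veh it fell by 1.26 ± 0.42 (adjusted p = 0.0488), close to the threshold. That call was lost when HFD+veh replicates 3 and 4 were left out of the fit (adjusted p = 0.053). Of the Timp3 exon sequence, 21.3% is shared with Syn3. Without HFD+veh replicates 3, 4 and 6, Mmp2 and Timp3 were still called, both lower, in HFD+eRapa against the 4 remaining HFD+veh libraries (-2.35, adjusted p = 0.0317, and -1.81, adjusted p = 0.0243). Mrc2 was not (-1.73, adjusted p = 0.141), nor was Timp3 called in HFD+veh against ND+veh (0.55, adjusted p = 0.56, and 0.98, adjusted p = 0.166, without replicates 3 and 4). Mmp14, a membrane-bound collagenase, was at 20.4 to 59.0 CPM in HFD+veh and 20.3 to 54.2 CPM in HFD+eRapa, and was not called between these groups. It was called lower in HFD+eRapa against ND+veh (-0.63 ± 0.17, adjusted p = 0.0155). Timp1 did not pass the filter, with reads in 18 of 24 libraries and at most 3.54 CPM.

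Of 6 tested collagen receptors, 4 fell and 1 rose in HFD+eRapa against HFD+veh (66.7% and 16.7%, beside 21.1% and 10.9% of all genes). Lair1, an inhibitory receptor of immune cells, was at 0.338 to 7.43 CPM in ND+veh, 1.01 to 131 CPM in HFD+veh (highest in replicate 6) and 0.0476 to 9.71 CPM in HFD+eRapa. It rose by 3.60 ± 0.96 on the log2 scale with HFD (adjusted p = 0.0114) and fell by 3.37 ± 0.91 in HFD+eRapa (adjusted p = 0.00779). Ddr2, a receptor kinase for fibrillar collagen, fell by 2.19 ± 0.52 (adjusted p = 0.00331), and Itga1, an integrin subunit, fell by 0.62 ± 0.18 (adjusted p = 0.0126). None of these 3 was called without HFD+veh replicates 3, 4 and 6: Lair1 had 1.45 with HFD (adjusted p = 0.433) and -1.21 in HFD+eRapa against HFD+veh (adjusted p = 0.526), Ddr2 had -0.92 (adjusted p = 0.355) and Itga1 had -0.20 (adjusted p = 0.546). Without replicates 3 and 4 Lair1 kept both calls and Ddr2 its call, and Itga1 did not (-0.56, adjusted p = 0.0736).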

How the data were processed

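RNA-seq reads were aligned by the authors to mm10 (Gencode vM23) with STAR, and the deposited counts are whole reads per gene from HTSeq 0.11.2. The deposited FPKM values were computed by the authors with Cufflinks. All libraries carry 1 batch label. Total counts were 17.7 to 25.9 M per library. Coordinates were read from Gencode M21 on GRCm38, the assembly of mm10. Counts were tested with edgeR 4.0.16 in R 4.3.3 (filterByExpr, TMM with factors of 0.848 to 1.30, glmQLFit robust, glmQLFTest) in 1 fit of all 24 libraries. The SE is the size of the log2 fold change over the root of F, and CPM are not TMM-scaled. FPKM were tested as log2(FPKM + 1) with limma 3.58.1, where fold changes of low genes are understated. The scripts were tested on simulated data.

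Named were Col1a1, Col1a2, Col3a1, Col4a1, Col4a2, Col18a1, each other collagen called in a contrast, Serpinh1, P4hb, Mmp14, Timp1, and the 3 called genes of smallest adjusted p in each of 4 handling lists. Other collagens named were chosen after their values were seen. The members and lists were chosen with earlier results of these data known. No pair of libraries of a group agreed within sampling noise. The lowest chi-square per degree of freedom, 12.3, was that of HFD+veh replicates 3 and 4, which were left out together above. The next lowest was 58.6 within HFD+veh (replicates 1 and 2) and 20.1 over all groups (HFD+eRapa replicates 5 and 8). Why HFD+veh replicates 3 and 4 were the closest was not tested. Alternatives were DESeq2 1.42.0, voom, other filters, scalings, covariates and samples.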

Additional observations from a re-analysis of the deposited data

Results flagged for a closer look

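In 3 of 63 groups of values (21 collagens in 3 groups), 1 library lay far from the rest by Dixon's test on log2 CPM, and chance at 1 in 20 would give 3.15. Col5a3 was at 7.307 CPM in HFD+veh replicate 6, the lowest of its group, against 22.5 CPM at the median. Col6a2 was at 0.1127 CPM in ND+veh replicate 1, against a median of 1.36 CPM. Col18a1 was at 489.3 CPM in ND+veh replicate 8, against a median of 965 CPM.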

How the results depend on the processing

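Called collagens numbered 6 in HFD+veh against ND+veh, 15 in HFD+eRapa against HFD+veh and 9 in HFD+eRapa against ND+veh. Leaving out each library in turn gave 2 to 7, 11 to 16 and 7 to 9. The first count moved by over 1.5 times without ND+veh replicate 1, 2, 3, 5 or 7 or HFD+veh replicate 3, 4 or 6. Replicate numbers were not taken to pair the libraries. Mean correlations of same-numbered libraries were 0.316, -0.245 and -0.203. In HFD+veh against ND+veh 5 of 7 same-numbered pairs were over 0.1 (highest 0.726), and 2 of 7 were best matches. With a replicate block the counts were 1, 9 and 5. A minimum of 10 counts in every library, which left 9 collagens to test, gave 2, 6 and 1. FPKM gave 3, 8 and 3 with a pseudocount of 1, 3, 9 and 3 with 0.1, and 1, 4 and 3 without a filter. The immune score as a covariate gave 1 and 3 in the 2 contrasts with HFD+veh, and the stellate score 12 and 1. In HFD+veh against ND+veh alone, voom gave 1, no filter 3, and a fit of only those groups 2. Without HFD+veh replicates 3, 4 and 6, edgeR called 0 and 1 in these 2 contrasts, and without 3 and 4 it called 0 and 8 (in HFD+veh against ND+veh 0 and 1 higher and 3 lower each at an unadjusted p under 0.05). Calls over all genes in the same contrasts fell from 3584 and 4432 to 917 and 729, and to 1714 and 2177. They were 1164 and 865 with the immune score, and 5355 and 693 with the stellate score. In HFD+veh against ND+veh the sign turned without replicates 3, 4 and 6 for Col3a1 (-0.095), Col1a2 (-0.20), Col4a1 (-0.44) and Col4a2 (-0.26), without 3 and 4 for Col4a1 (-0.15) and Col4a2 (-0.0059), and with the immune score for Col4a1 (-0.54) and Col4a2 (-0.28). In HFD+eRapa against HFD+veh it turned with the stellate score for Col1a1 (0.29), Col1a2 (0.061), Col4a1 (0.57), Col4a2 (0.45), Col6a3 (0.11) and Col13a1 (0.18), and with the immune score for Col4a1 (0.14). In HFD+eRapa against ND+veh it turned with the stellate score for Col1a1 (2.61), Col1a2 (1.75), Col3a1 (1.70), Col4a1 (1.25), Col4a2 (1.12), Col5a1 (0.30), Col6a1 (0.33), Col6a2 (0.29), Col6a3 (0.68), Col13a1 (0.067) and Col14a1 (0.093). The cause was not tested. Signs were followed in each contrast only for the collagens called there and for Col1a1, Col1a2, Col3a1, Col4a1, Col4a2 and Col18a1. None of these turned when a single library was left out. Handling genes, run through the same settings after the data had been seen, numbered 12, 31 and 12, with 7 to 19, 20 to 34 and 7 to 14 when single libraries were left out, and moved by over 1.5 times without HFD+veh replicate 2 (19) or 6 (7) in the first contrast, without HFD+veh replicate 6 (20) in the second, and without ND+veh replicate 6 or HFD+eRapa replicate 6, 7, 8 or 9 (7 each) in the last. In HFD+veh against ND+veh voom gave 7, the stellate score 27, the immune score 4, a log2 fold change of at least 1 gave 6, FPKM without a filter 6, and leaving out HFD+veh replicates 3, 4 and 6 or 3 and 4 gave 3 and 7. In HFD+eRapa against HFD+veh the stricter filter gave 15, the replicate block 15, the stellate score 3, the immune score 6, FPKM without a filter 16, and leaving out those libraries 5 and 16. In HFD+eRapa against ND+veh no filter gave 7, the stricter filter 6, the replicate block 7, the immune score 20, FPKM 6, and FPKM without a filter 4. The sign turned for Loxl2 in HFD+veh against ND+veh (-0.0071, without replicates 3, 4 and 6) and with the stellate score for Lair1 (0.29) and Serpinh1 (0.21) in HFD+eRapa against HFD+veh and for Ddr2 (0.14), Loxl3 (0.78) and Timp3 (0.27) in HFD+eRapa against ND+veh. Genes at under 1 CPM rest on few reads, and the filter kept 23 collagens out of the test.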
